A study of Mus musculus with 8 samples.

Results

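Mitochondrial ribosomal protein genes are the nuclear genes for the proteins of the ribosome inside mitochondria. The members were the protein-coding genes of the count table whose name begins with Mrpl or Mrps followed by a digit, which gave 78 of 54532 genes. By their names, 49 of the 78 encode proteins of the large subunit and 29 encode proteins of the small subunit. They were compared between tumors of mice given saline and tumors of mice given the antibody-drug conjugate mAb-DXd/IMQ, and the length of each gene was considered.

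Mitochondrial ribosomes, or mitoribosomes, translate the few messenger RNAs of mitochondrial DNA, which encode core subunits of the respiratory chain and of ATP synthase. All of their proteins are encoded in the nucleus, made in the cytosol and imported, and many have counterparts in bacterial ribosomes while others are found in mitochondria alone. Respiring carcinoma cells need this machinery to renew their oxidative phosphorylation complexes, and its genes are expressed in nearly every cell type of a tumor.

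The tumors came from 4T1-FLuc cells, a mouse triple-negative breast cancer line that carries firefly luciferase, placed under the skin of 6-week-old female BALB/cJ mice, which have an intact immune system. The conjugate is a humanized antibody to CD276 that carries DXd, an inhibitor of TOP1, and IMQ, an agonist of TLR7 and TLR8, and mice received it by vein in 5 courses of 16 mg/kg, spaced 4 days apart. Control mice received saline, and the sample labels also name this group a PBS control. Tumors were collected at the endpoint from 4 mice per group, and each bulk tumor gave 1 library of poly-A selected RNA. The comparison asks how the tumor's RNA differed between the conjugate and its vehicle control at that time.

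Total counts were 49398150, 45019927, 56388627 and 69582375 in saline tumors 1 to 4 and 51625237, 46196237, 42965317 and 34591912 in mAb-DXd/IMQ tumors 1 to 4. A floor of 3 counts corresponded to 0.0607, 0.0666, 0.0532 and 0.0431 CPM (a count relative to the total of its library) in the saline tumors and to 0.0581, 0.0649, 0.0698 and 0.0867 CPM in the mAb-DXd/IMQ tumors. These floors cover counting error only. All gene levels in CPM were scaled with TMM factors, and tumors are numbered by the sample numbers in the labels. In bulk tumors, fewer cells with a transcript and less of the transcript per cell cannot be told apart.

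All members but 1 had counts in these tumors, and 77 of the 78 passed the filter on low counts. Mrpl53, a protein of the large subunit, was listed with 0 counts in every tumor, so its level lay under the floor of each. The Mrpl53 row (ENSMUSG00000030037, chr6:83109040-83109939, plus strand, GRCm38) shares 87.97% of its exon bases with rows on the same strand, among them Gm42688 with 241 counts, and the part of this overlap in the count of 0 was not tested. The 78 members together held 0.258, 0.267, 0.281 and 0.272% of all counts in saline tumors 1 to 4 and 0.352, 0.308, 0.292 and 0.327% in mAb-DXd/IMQ tumors 1 to 4. All 4 mAb-DXd/IMQ tumors lay above all 4 saline tumors in this share, mAb-DXd/IMQ tumor 1 farthest and mAb-DXd/IMQ tumor 3 nearest. The group means were 0.269 ± 0.0093% with saline and 0.32 ± 0.026% with mAb-DXd/IMQ (SD, n = 4). With TMM scaling, the members summed to 2588, 2712, 2835 and 2765 in saline tumors 1 to 4 and 3749, 3049, 2739 and 3183 in mAb-DXd/IMQ tumors 1 to 4 (CPM). On that scale mAb-DXd/IMQ tumor 3 lay among the saline tumors, and the other 3 mAb-DXd/IMQ tumors lay above them, so the groups overlapped. Another 5 rows of the table are processed pseudogenes with Mrp names and were not counted as members. The pseudogene Mrpl48-ps held 3044 counts over the 8 tumors, beside 10715 for Mrpl48, and the other 4 held at most 601 each, so Mrpl48 is reported as uncertain.

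Per kilobase of the deposited gene length, the tested members had a median level of 14.04 CPM per kb over the 8 tumors, beside 3.93 CPM per kb for all 18511 tested genes. The highest were Mrps21 at 70.7, Mrpl14 at 63.3 and Mrpl52 at 57.9 CPM per kb, and the lowest were Mrpl48 at 3.32, Mrps25 at 3.59 and Mrps30 at 3.67 CPM per kb. Levels of the highest and the lowest member per kb differed 21.3 times. Large-subunit genes had a median of 17.2 CPM per kb and small-subunit genes a median of 9.53 CPM per kb. The deposited length equals the union of a gene's exons for 73 of the 78 members, and it is longer than the principal transcript for 70 members, equal to it for 4 and shorter for 4 (Mrpl11, Mrpl16, Mrpl43 and Mrpl49). With the length of the principal transcript the lowest and highest members were Mrps25 at 3.89 and Mrpl52 at 153.7 CPM per kb. The order of levels therefore depends on which length is used, and the ratio of highest to lowest was 39.5 with the principal transcript.

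**Figure D1:**
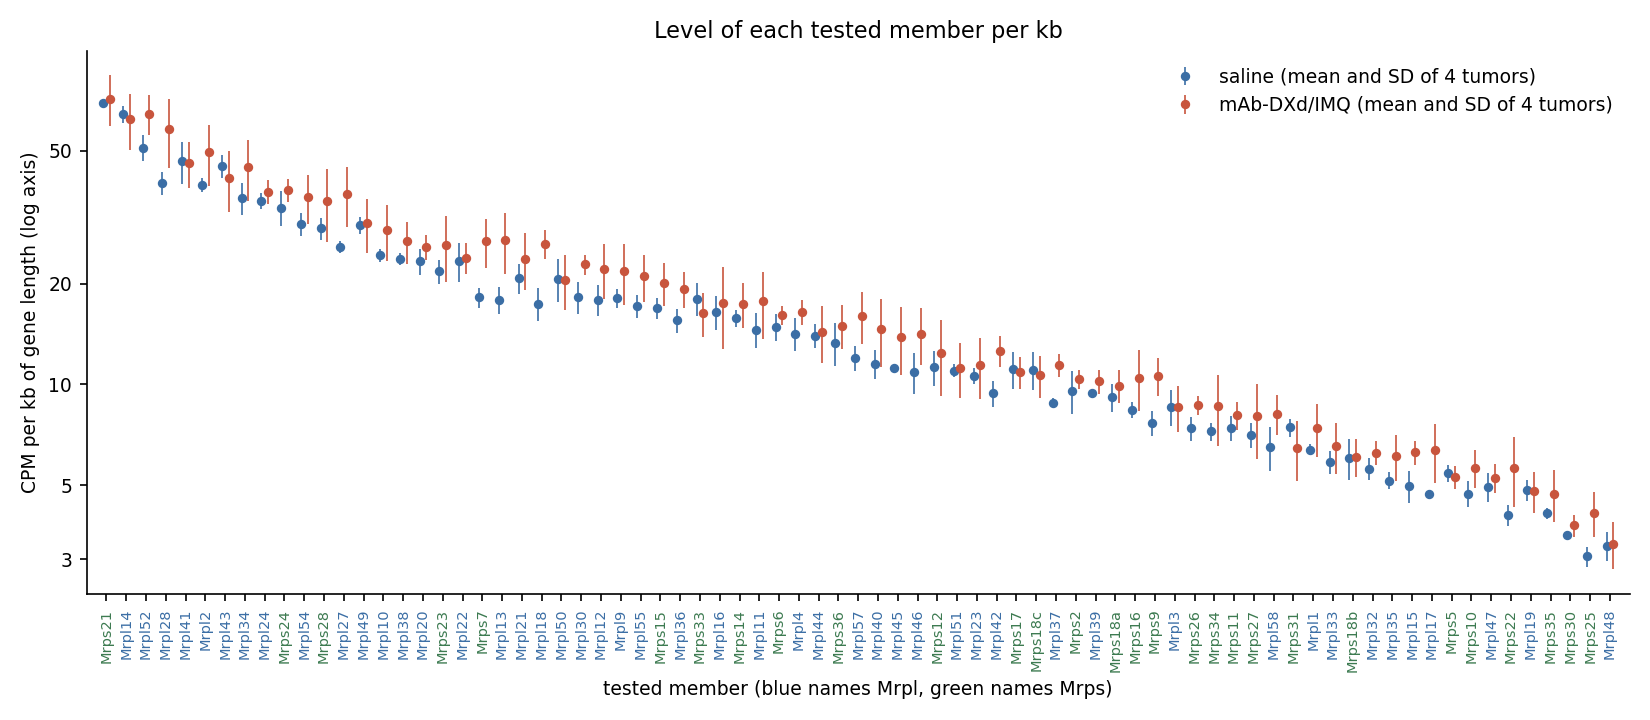
Level of each of the 77 tested mitochondrial ribosomal protein genes in CPM per kb of gene length on a log axis, as the mean and SD of 4 saline tumors and of 4 mAb-DXd/IMQ tumors. Means over all 8 tumors run from 3.32 CPM per kb for Mrpl48 to 70.7 CPM per kb for Mrps21, and the 2 groups lie close together for most genes.

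Of the tested mitochondrial ribosomal protein genes 1, Mrpl18, passed the test between mAb-DXd/IMQ and saline, and most of the others had small positive log2 fold changes that did not pass it. Of the 77 tested members, 66 had a positive log2 fold change and 11 a negative one, and the median was 0.19, beside 0.022 over all 18511 tested genes, of which 52.63% were positive. The log2 fold changes ran from −0.21 for Mrps31 to 0.59 for Mrpl18. Mrpl18 alone was past an FDR of 0.05 with a log2 fold change over 0.58 in either direction, against 0.546% of all tested genes called higher and 0.519% called lower by the same edgeR test. No member was called lower: 0 by edgeR, 0 by DESeq2 and 0 by limma voom, and 0 were lower at an unadjusted p under 0.05 in edgeR, where 9.79% of all tested genes were. At that unadjusted level 20 of 77 members were higher, against 9.13% of all tested genes, and DESeq2 gave 19 and limma voom 18, against 9.65% and 8.98% of all tested genes. Among all tested genes 101 were called higher and 96 lower, together 197, and with upper-quartile scaling the split was 145 higher and 73 lower. Calls over the whole table numbered 111, 10 and 11 without saline tumors 2, 3 and 4 and 76, 88 and 12 without mAb-DXd/IMQ tumors 2, 3 and 4. Across the scalings tried, the median over all tested genes moved by less than 0.1.

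In 12 of the 77 members every mAb-DXd/IMQ tumor lay above every saline tumor, against 5.97% of all tested genes, and in 0 members every one lay below, against 7.1%. These 12 were Mrpl13, Mrpl15, Mrpl17, Mrpl18, Mrpl30, Mrpl36, Mrpl37, Mrpl42, Mrps7, Mrps9, Mrps25 and Mrps26, of which those outside the rule for named genes were chosen after their values were seen. The group sizes differ by subunit, and the large-subunit genes had a median log2 fold change of 0.25 with 42 of 48 positive, 1 called and 15 higher at an unadjusted p under 0.05, against 9.13% of all tested genes. For the small-subunit genes the median was 0.18 with 24 of 29 positive, 0 called by edgeR, DESeq2 or limma voom, and 5 higher at an unadjusted p under 0.05 in edgeR, against the same share. Subunits were taken from the gene names throughout, and the names do not give the subunit for Mrps18a, Mrps30 and Mrps36. A difference between the subunits was not tested. Members with a bacterial counterpart, taken by protein number, had a median of 0.21 with 38 of 44 positive, and those without had 0.19 with 28 of 33 positive. Without mAb-DXd/IMQ tumor 1 the medians were 0.13 for the large subunit, 0.085 for the small subunit, 0.13 with a counterpart and 0.092 without. Without saline tumor 1 the small-subunit median was 0.10. With mAb-DXd/IMQ tumor 3 left out, 25 large-subunit and 11 small-subunit genes were higher at an unadjusted p under 0.05, against 8.67% of all genes tested in that fit, and 2 large-subunit genes passed the thresholds, Mrpl13 and Mrpl27, against 0.276% called higher.

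Tumors of the mAb-DXd/IMQ group were not alike in these genes. Relative to the saline mean, the median log2 deviation over the 77 members was −0.085, 0.014, 0.066 and 0.035 in saline tumors 1 to 4 and 0.45, 0.15, 0.023 and 0.19 in mAb-DXd/IMQ tumors 1 to 4. Tumor 1 stood highest among the mAb-DXd/IMQ tumors and tumor 3 lay within the range of the saline tumors. Of the 77 members, 61 had their highest level of all 8 tumors in mAb-DXd/IMQ tumor 1, and 6, 4 and 1 had it in mAb-DXd/IMQ tumors 4, 3 and 2. The lowest level was in saline tumor 1 for 31 members, in mAb-DXd/IMQ tumor 3 for 18 and in saline tumor 2 for 14. Leaving out mAb-DXd/IMQ tumor 1 lowered the members' median log2 fold change from 0.19 to 0.11 with 57 of 77 positive, and the other 7 tumors left out in turn gave medians between 0.19 and 0.25. With mAb-DXd/IMQ tumor 1 left out, 15 members were higher and 2 lower at an unadjusted p under 0.05, against 10.3% and 11.5% of all genes tested in that fit, and without mAb-DXd/IMQ tumor 3, 36 were higher and 0 lower, against 8.67% and 9.27%.

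**Figure D2:**
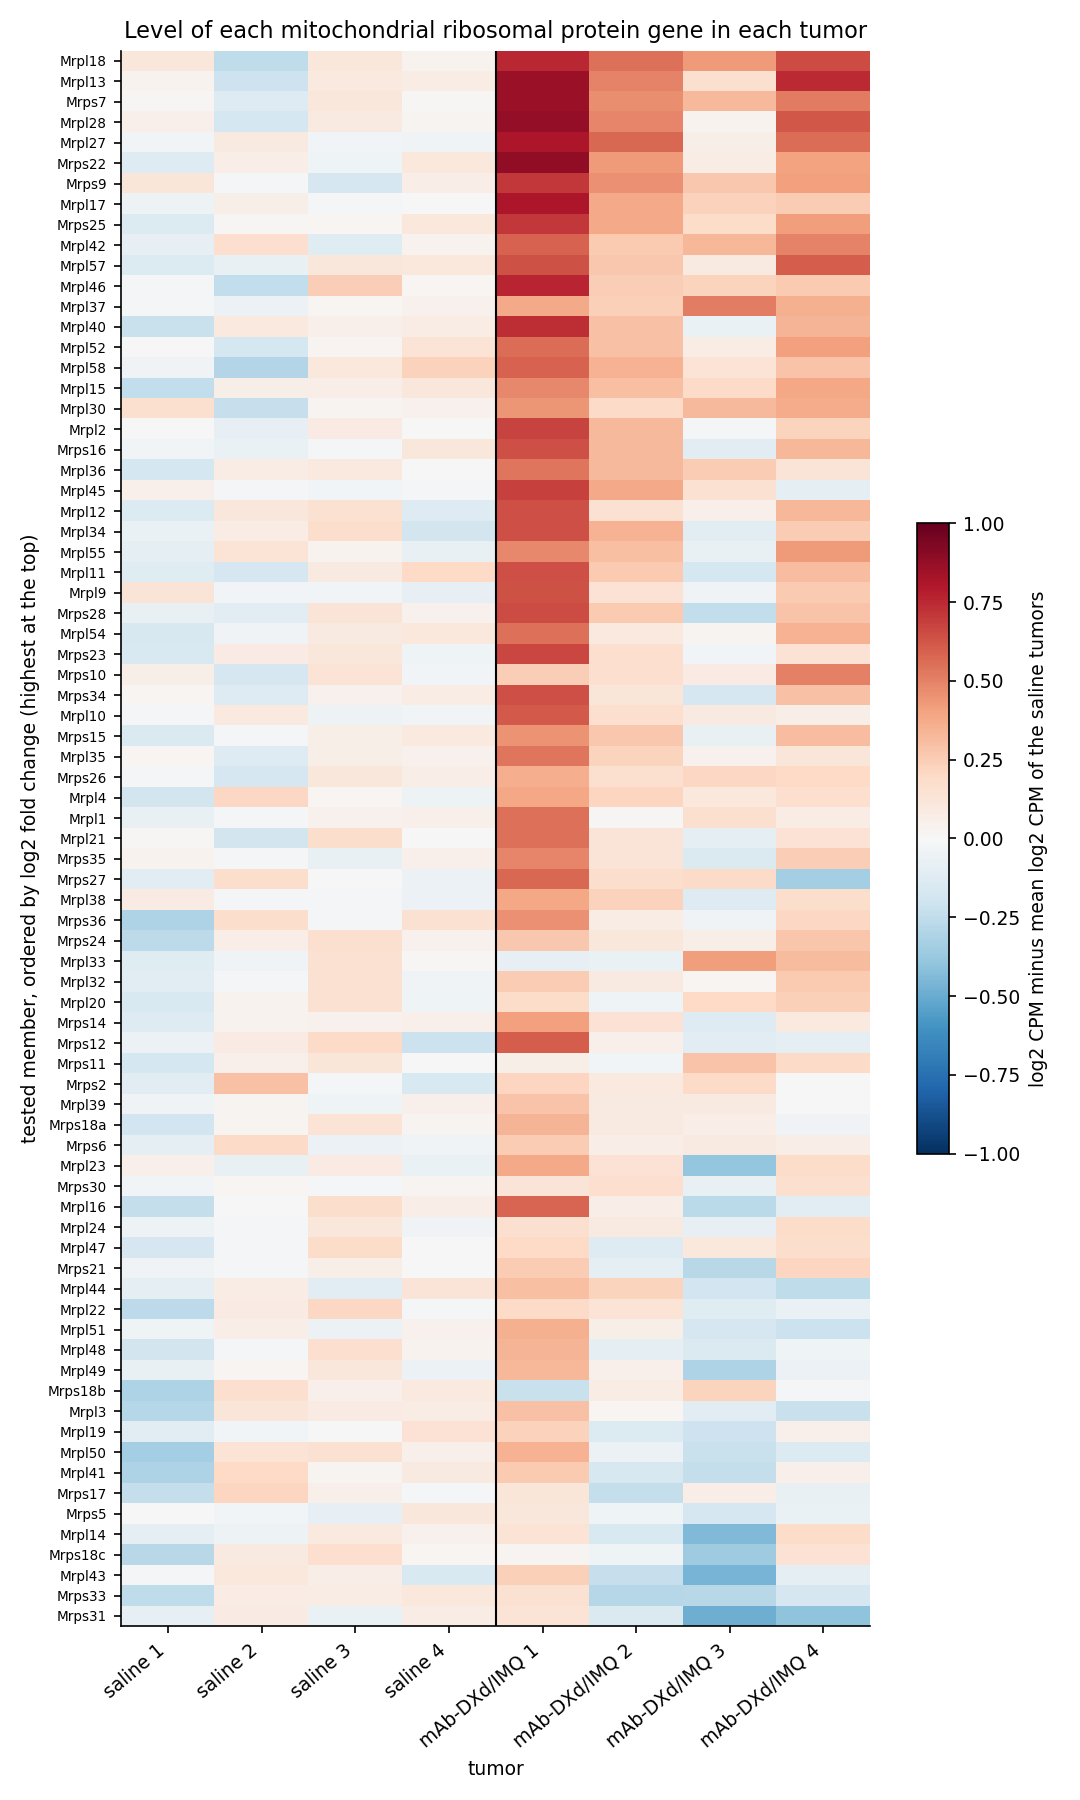
Log2 CPM of the 77 tested members in each of the 8 tumors, relative to the mean of the saline tumors, with 1 line per gene and 1 column per tumor. In the column of mAb-DXd/IMQ tumor 1 most genes lie above the saline mean, with a median deviation of 0.45, and in that of mAb-DXd/IMQ tumor 3 the median deviation is 0.023.

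Promoters of these genes are shown because the members' log2 fold changes were mostly of the same sign, and because factors that bind such letters are known to act on genes for mitochondrial proteins. RefSeq promoters of build GRCm38.p6 matched 69 of the 78 members. Windows of 300 bases, 250 before to 50 after each RefSeq start, were searched on both strands for GCGCATGC (NRF1), CCGGAAG (ETS factors such as GABP) and AAGATGGC (YY1), with overlapping matches counted. Of the 69 members, 26 (37.7%) held CCGGAAG, 12 (17.4%) held AAGATGGC and 8 (11.6%) held GCGCATGC in any of their promoters, against 9.93%, 3.19% and 3.05% of the 27025 genes of the promoter table, counted in the same way. At least 1 of the 3 motifs was found for 38 members (55.1%), against 14.9% of those genes. The median log2 fold change was 0.19 for the 37 tested members with a motif and 0.15 for the 31 without, and a match is a description of letters in this window. The 250 bases before the RefSeq start are printed 5′ to 3′ with motif letters in capitals, on either strand, for 4 genes of positive log2 fold change (Mrpl18, Mrpl27 and Mrps22 with CCGGAAG, Mrps7 with none of the 3), for Mrpl43 with 2 copies of CCGGAAG and a negative log2 fold change, and for Mrpl32, chosen after its letters were seen, with 4 copies of GCGCATGC, of which 2 overlap each other, and 1 of AAGATGGC. The RefSeq start equals the start of the row in the count table for 22 of the 75 promoters of these members, and for 42 of the 69 members some of the 250 bases lie inside the span of the row. Inside it lie all 250 printed bases of Mrpl18 with its CCGGAAG, 215 of Mrps7, 128 of Mrpl32 with 4 of its 5 motif copies, 24 of Mrpl27 without its motif, and 0 of Mrps22 and Mrpl43. The printed bases lie at chr17:12916092-12916341 on the minus strand for Mrpl18, chr11:94653541-94653790 on the plus strand for Mrpl27, chr9:98601680-98601929 on the minus strand for Mrps22, chr11:115603890-115604139 on the plus strand for Mrps7, chr19:45006443-45006692 on the minus strand for Mrpl43 and chr13:14613038-14613287 on the minus strand for Mrpl32.
Mrpl18: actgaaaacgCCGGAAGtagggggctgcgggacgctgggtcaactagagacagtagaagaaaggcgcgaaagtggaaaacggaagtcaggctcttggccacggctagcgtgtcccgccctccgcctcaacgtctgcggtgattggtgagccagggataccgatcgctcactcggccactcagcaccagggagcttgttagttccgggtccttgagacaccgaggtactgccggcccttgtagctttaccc
Mrpl27: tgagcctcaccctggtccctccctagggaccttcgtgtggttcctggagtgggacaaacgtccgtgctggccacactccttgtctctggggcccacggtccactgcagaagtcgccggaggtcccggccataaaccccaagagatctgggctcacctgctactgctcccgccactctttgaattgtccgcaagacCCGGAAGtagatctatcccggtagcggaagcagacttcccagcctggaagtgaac
Mrps22: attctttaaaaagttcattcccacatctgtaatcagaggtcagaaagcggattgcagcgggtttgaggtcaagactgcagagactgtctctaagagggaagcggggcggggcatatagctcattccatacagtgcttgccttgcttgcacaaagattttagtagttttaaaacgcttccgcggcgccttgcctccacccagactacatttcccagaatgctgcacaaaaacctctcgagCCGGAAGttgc
Mrps7: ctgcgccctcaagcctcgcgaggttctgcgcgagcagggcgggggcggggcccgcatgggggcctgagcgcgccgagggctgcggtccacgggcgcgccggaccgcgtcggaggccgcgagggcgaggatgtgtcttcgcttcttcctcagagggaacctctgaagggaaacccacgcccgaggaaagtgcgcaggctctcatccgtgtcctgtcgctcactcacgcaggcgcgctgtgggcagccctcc
Mrpl43: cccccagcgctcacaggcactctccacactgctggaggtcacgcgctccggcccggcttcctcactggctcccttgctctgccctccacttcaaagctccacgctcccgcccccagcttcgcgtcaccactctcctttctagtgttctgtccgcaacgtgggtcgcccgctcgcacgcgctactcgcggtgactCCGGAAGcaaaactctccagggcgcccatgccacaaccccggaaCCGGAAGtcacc
Mrpl32: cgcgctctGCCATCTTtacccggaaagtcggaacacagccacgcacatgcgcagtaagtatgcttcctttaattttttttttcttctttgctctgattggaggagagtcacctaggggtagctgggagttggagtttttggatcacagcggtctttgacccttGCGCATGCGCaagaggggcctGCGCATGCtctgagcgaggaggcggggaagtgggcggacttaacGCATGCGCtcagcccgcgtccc

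Among the large-subunit genes, Mrpl18 had the highest log2 fold change and was the member past the test. Mrpl18 (ENSMUSG00000057388, chr17:12911349-12916345, minus strand), whose protein lies in the central protuberance at the top of the subunit, had 26.3, 20.3, 26.2 and 24.9 CPM in saline tumors 1 to 4 and 41.03, 35.5, 32.7 and 38.3 CPM in mAb-DXd/IMQ tumors 1 to 4. All 4 mAb-DXd/IMQ tumors lay above all 4 saline tumors, tumor 1 highest, and the groups did not overlap. Mrpl18 rose with a log2 fold change of 0.59 (SE 0.12, n = 4 per group) and edgeR adjusted p = 0.0451. Leaving out any of the 8 tumors ended the call, with edgeR adjusted p of 0.0602, 0.0911, 0.106 and 0.145 without saline tumors 1 to 4 and 0.0608, 0.0867, 0.0579 and 0.117 without mAb-DXd/IMQ tumors 1 to 4. The call also ended with limma voom (adjusted p = 0.0512) and with correction for gene length (log2 fold change 0.49, edgeR adjusted p = 0.0576). Over the 28 alternatives the log2 fold change lay between 0.43 and 0.65 and the adjusted p between 0.00174 and 0.177, and Mrpl18 was past the thresholds in 6 of them. Mrpl18 shares 10.1% of its exon bases with Tcp1 on the other strand, a chaperonin gene with 1059% of the counts of Mrpl18 and a log2 fold change of −0.021, and since use of strand in the counting is not stated, Mrpl18 is reported as uncertain.

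Mrpl13 (ENSMUSG00000022370, chr15:55534094-55557748, minus strand), the counterpart of bacterial L13 and the most counted member, had 145, 123, 152 and 149.6 CPM in saline tumors 1 to 4 and 258, 201, 159 and 239 CPM in mAb-DXd/IMQ tumors 1 to 4. Every mAb-DXd/IMQ tumor lay above every saline tumor, with mAb-DXd/IMQ tumor 3 nearest to them. Mtbp on the other strand overlaps Mrpl13 and had 23.15% of the counts of Mrpl13. Mrpl13 had a log2 fold change of 0.59 (SE 0.15) and edgeR adjusted p = 0.0751, and it passed the thresholds without mAb-DXd/IMQ tumor 3 (log2 fold change 0.71, edgeR adjusted p = 0.0480) and with DESeq2 (adjusted p = 0.0125), among alternatives between 0.0125 and 0.205. Mrpl28 (ENSMUSG00000024181, chr17:26123520-26126613, plus strand), the counterpart of bacterial L28, had 52.9, 45.2, 54.3 and 52.1 CPM in saline tumors 1 to 4 and 93.96, 71.5, 52.2 and 78.6 CPM in mAb-DXd/IMQ tumors 1 to 4. Here mAb-DXd/IMQ tumor 3 lay among the saline tumors and the other 3 above them. Mrpl28 had a log2 fold change of 0.54 (SE 0.16) and edgeR adjusted p = 0.111. Mrpl27 (ENSMUSG00000024414, chr11:94653767-94660089, plus strand) encodes the counterpart of bacterial L27, which reaches toward the peptidyl transferase center, and had 25.02, 27.1, 24.97 and 24.8 CPM in saline tumors 1 to 4 and 44.6, 37.9, 26.5 and 37.4 CPM in mAb-DXd/IMQ tumors 1 to 4. Saline tumors 1, 3 and 4 were nearly equal, saline tumor 2 was higher, mAb-DXd/IMQ tumor 3 lay between them and saline tumor 2, and the other 3 mAb-DXd/IMQ tumors lay above all. Mrpl27 had a log2 fold change of 0.52 (SE 0.15) and edgeR adjusted p = 0.0957, and without mAb-DXd/IMQ tumor 3 it passed the thresholds at 0.65 (edgeR adjusted p = 0.0480, alternatives between 0.0344 and 0.323). Its head-to-head neighbor Eme1, an endonuclease gene on the other strand that overlaps it, had a log2 fold change of 0.76 and 35.9% of the counts of Mrpl27.

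**Figure D3:**
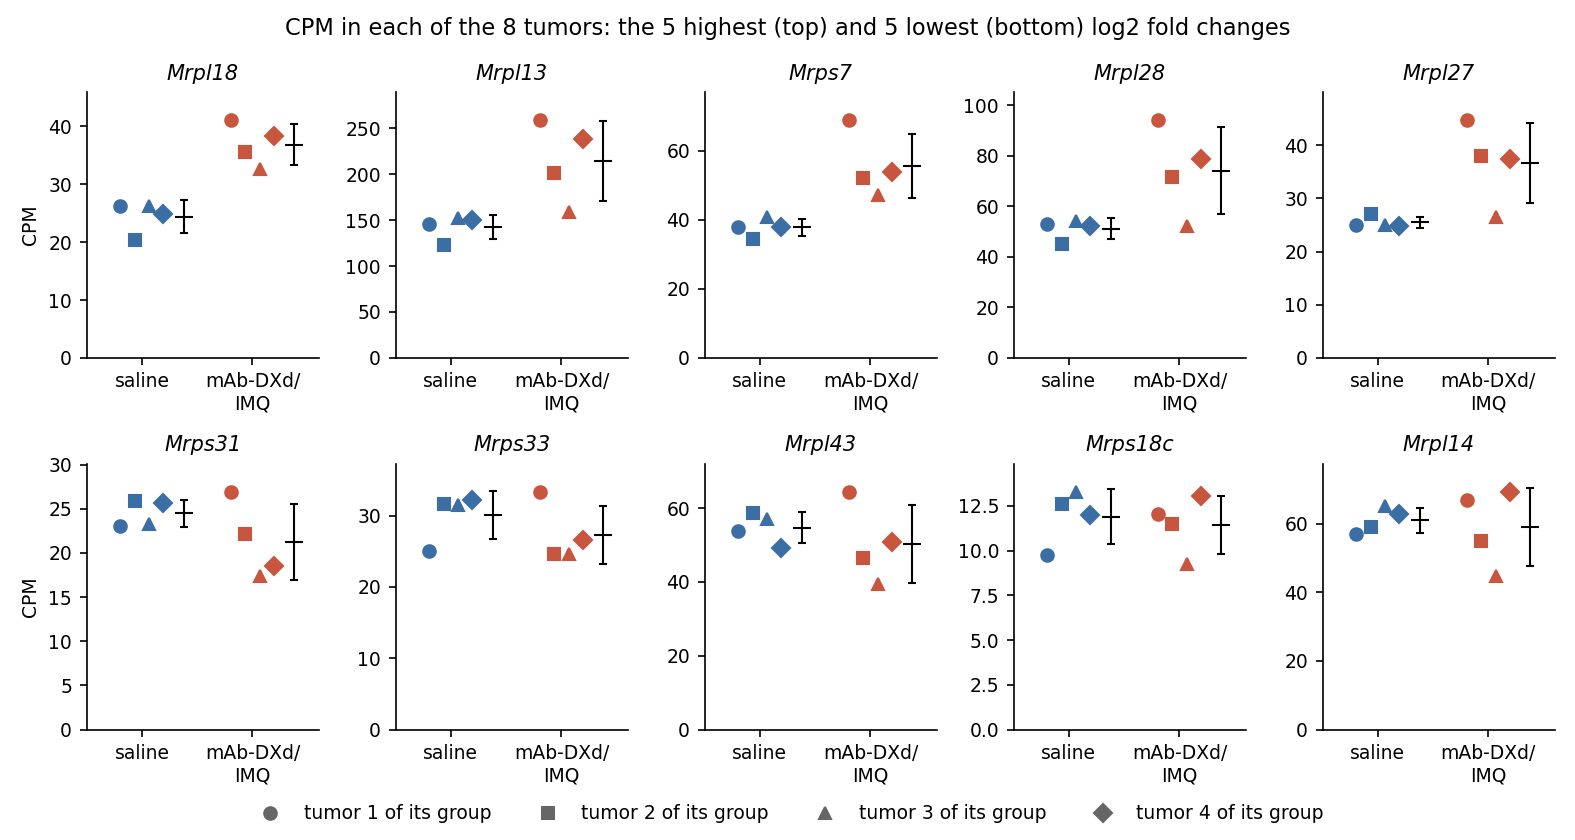
CPM of the 5 members with the highest and the 5 with the lowest log2 fold change in each of the 4 saline and 4 mAb-DXd/IMQ tumors, with group mean and SD. Mrpl18, Mrpl13 and Mrps7 show no overlap of the groups, and for Mrps31 3 of the 4 mAb-DXd/IMQ tumors lie below every saline tumor.

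Other large-subunit genes with bacterial counterparts did not pass the edgeR test. Mrpl3, the counterpart of L3 near the catalytic center, had 46.5, 61.6, 60.1 and 59.7 CPM in saline tumors 1 to 4 and 69.3, 57.5, 52.4 and 48.6 CPM in mAb-DXd/IMQ tumors 1 to 4. Saline tumor 1 was lowest and mAb-DXd/IMQ tumor 1 highest, and the other 6 tumors lay between them. Mrpl3 had a log2 fold change of −0.001 (SE 0.14) and edgeR adjusted p = 0.998. Mrpl12, a protein of the stalk that also binds the mitochondrial RNA polymerase, had 24.8, 29.6, 30.3 and 25.0 CPM in saline tumors 1 to 4 and 42.8, 30.4, 28.2 and 34.4 CPM in mAb-DXd/IMQ tumors 1 to 4. Of the mAb-DXd/IMQ tumors, 1, 2 and 4 lay above all saline tumors and 3 among them. Mrpl12 had a log2 fold change of 0.31 (SE 0.15) and edgeR adjusted p = 0.281, and a log2 fold change of 0.17 without mAb-DXd/IMQ tumor 1. Mrpl14, which lies at the subunit interface and is bound by the assembly factor MALSU1, had 57.2, 58.97, 65.2 and 62.9 CPM in saline tumors 1 to 4 and 66.98, 54.9, 44.9 and 69.2 CPM in mAb-DXd/IMQ tumors 1 to 4. Of the mAb-DXd/IMQ tumors, 1 and 4 lay above the saline group and 2 and 3 below it. Mrpl14 had a log2 fold change of −0.050 (SE 0.14) and edgeR adjusted p = 0.885, and it overlaps Tmem63b on the other strand, which had 101% of its counts.

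Several large-subunit genes encode proteins that bacterial ribosomes lack. Mrpl44, a protein with an RNase III-like domain that is mutated in human cardiomyopathy, had 21.6, 24.1, 21.3 and 25.1 CPM in saline tumors 1 to 4 and 28.3, 26.8, 20.1 and 19.2 CPM in mAb-DXd/IMQ tumors 1 to 4. Above all saline tumors lay mAb-DXd/IMQ tumors 1 and 2, and below all of them tumors 3 and 4. Mrpl48, a protein of the central protuberance, had 23.5, 26.5, 29.97 and 27.4 CPM in saline tumors 1 to 4 and 33.8, 24.95, 24.2 and 25.9 CPM in mAb-DXd/IMQ tumors 1 to 4. The groups overlapped, with mAb-DXd/IMQ tumor 1 highest and saline tumor 1 lowest. Log2 fold changes were 0.037 (SE 0.15) for Mrpl44 and 0.021 (SE 0.14) for Mrpl48. Mrpl44 overlaps Wdfy1 on the other strand, which had 231.5% of its counts and a log2 fold change of −0.211. Mrpl48 overlaps Rab6a on the other strand, which had 357.1% of its counts and a log2 fold change of −0.223. Mrpl41 had 33.01, 46.9, 41.8 and 43.6 CPM in saline tumors 1 to 4 and 49.1, 36.7, 34.8 and 42.4 CPM in mAb-DXd/IMQ tumors 1 to 4. The mAb-DXd/IMQ tumor 1 was highest and saline tumor 1 lowest, and the other 6 tumors were mixed. Mrpl43 had 53.8, 58.6, 57.1 and 49.2 CPM in saline tumors 1 to 4 and 64.3, 46.5, 39.5 and 50.9 CPM in mAb-DXd/IMQ tumors 1 to 4. The mAb-DXd/IMQ tumor 1 was again highest, while tumors 2 and 3 lay below every saline tumor. Mrpl41 had a log2 fold change of −0.021 (SE 0.14), and Mrpl43, the lowest of the large subunit, had −0.12 (SE 0.14, edgeR adjusted p = 0.701). For Mrpl43 it was −0.26 without mAb-DXd/IMQ tumor 1 and −0.021 without mAb-DXd/IMQ tumor 3. Mrpl52 had 56.8, 50.2, 57.6 and 62.3 CPM in saline tumors 1 to 4 and 83.2, 69.3, 59.5 and 75.1 CPM in mAb-DXd/IMQ tumors 1 to 4. Here mAb-DXd/IMQ tumors 1, 2 and 4 lay above all saline tumors and tumor 3 among them. Mrpl58, also known as ICT1, is a peptidyl-tRNA hydrolase built into the subunit that releases stalled chains, and it had 20.9, 17.4, 22.97 and 25.1 CPM in saline tumors 1 to 4 and 32.3, 27.2, 23.5 and 26.1 CPM in mAb-DXd/IMQ tumors 1 to 4. The same 3 mAb-DXd/IMQ tumors lay above the saline tumors, and tumor 3 among them. Mrpl52 and Mrpl58 had log2 fold changes of 0.34 (SE 0.12, edgeR adjusted p = 0.171) and 0.34 (SE 0.15, edgeR adjusted p = 0.240).

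**Figure D4:**
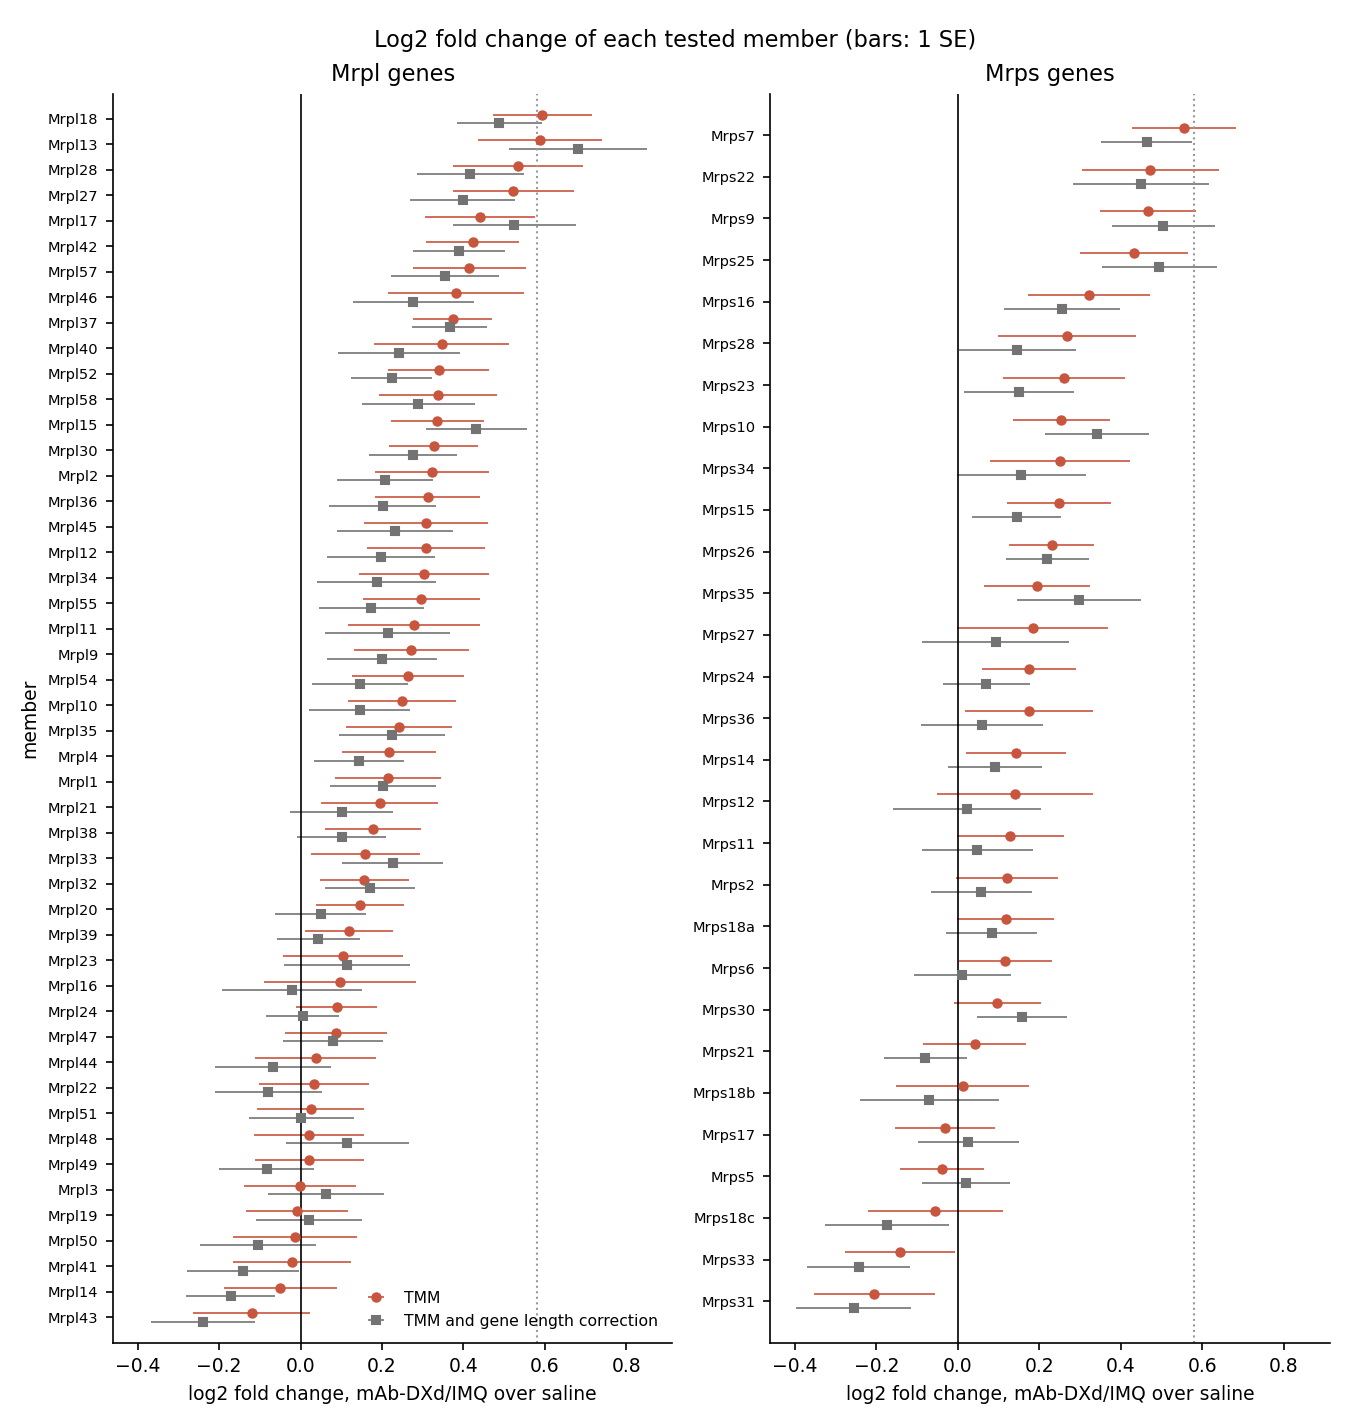
Log2 fold change of mAb-DXd/IMQ over saline with its SE for each tested member, Mrpl genes and Mrps genes in separate panels, with TMM scaling and with correction for gene length, and a dotted line at 0.58. Of 77 members, 66 lie above 0 with TMM scaling and 64 with the length correction, and those near 0 change sign between settings.

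In the small subunit no gene was past both the FDR and the fold threshold, by edgeR, DESeq2 or limma voom, though Mrps7, Mrps9 and Mrps25 had an FDR under 0.05 with DESeq2, and Mrps7 had the lowest edgeR adjusted p. Mrps7 (ENSMUSG00000046756, chr11:115603925-115608036, plus strand), a protein of the head of the subunit, had 38.03, 34.4, 40.7 and 37.9 CPM in saline tumors 1 to 4 and 68.8, 52.1, 47.3 and 53.96 CPM in mAb-DXd/IMQ tumors 1 to 4. All 4 mAb-DXd/IMQ tumors lay above all 4 saline tumors. Mrps7 had a log2 fold change of 0.56 (SE 0.13) and edgeR adjusted p = 0.0571, and with upper-quartile scaling it passed the thresholds (log2 fold change 0.60, edgeR adjusted p = 0.0401, alternatives between 0.00628 and 0.213). Mrps7 shares 11.9% of its exon bases with other rows, and Gga3 on the other strand had 166% of its counts. Mrps2, the counterpart of bacterial S2, had 25.6, 33.9, 27.3 and 24.9 CPM in saline tumors 1 to 4 and 32.2, 29.7, 31.7 and 27.8 CPM in mAb-DXd/IMQ tumors 1 to 4. Saline tumor 2 was highest of all 8 and the groups overlapped. Mrps5, a gene tied to lifespan across mouse strains, had 35.6, 34.96, 33.6 and 38.6 CPM in saline tumors 1 to 4 and 38.5, 34.6, 31.8 and 34.04 CPM in mAb-DXd/IMQ tumors 1 to 4. All 8 tumors lay close together, mAb-DXd/IMQ tumor 3 lowest. The log2 fold changes were 0.12 (SE 0.13) for Mrps2 and −0.039 (SE 0.10) for Mrps5. Mrps12, a protein of the decoding center, had 11.2, 12.3, 13.3 and 10.04 CPM in saline tumors 1 to 4 and 17.7, 12.1, 10.8 and 10.9 CPM in mAb-DXd/IMQ tumors 1 to 4. Only mAb-DXd/IMQ tumor 1 lay above the saline tumors, and the other 3 lay among them. Mrps12 had a log2 fold change of 0.14 (SE 0.19) and edgeR adjusted p = 0.741, and without mAb-DXd/IMQ tumor 1 its log2 fold change was −0.056.

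Mrps16, a counterpart of bacterial S16 that is mutated in a human disorder of mitochondrial translation, had 23.7, 23.1, 23.7 and 26.03 CPM in saline tumors 1 to 4 and 37.7, 30.2, 22.3 and 30.4 CPM in mAb-DXd/IMQ tumors 1 to 4. The mAb-DXd/IMQ tumor 3 was the lowest of all 8, and the other 3 lay above every saline tumor. Mrps16 had a log2 fold change of 0.32 (SE 0.15) and edgeR adjusted p = 0.276, and a log2 fold change of 0.19 without mAb-DXd/IMQ tumor 1. Mrps21, the member with the highest level per kb, had 50.1, 51.1, 53.6 and 51.3 CPM in saline tumors 1 to 4 and 61.6, 48.3, 42.4 and 59.7 CPM in mAb-DXd/IMQ tumors 1 to 4. Above all saline tumors lay mAb-DXd/IMQ tumors 1 and 4, and below all of them tumors 2 and 3. Mrps21 had a log2 fold change of 0.041 (SE 0.13).

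None of the small-subunit genes without a bacterial counterpart was past the FDR and fold thresholds in edgeR, DESeq2 or limma voom. Mrps22, mutated in human disorders of mitochondrial translation, had 14.8, 16.9, 15.7 and 17.4 CPM in saline tumors 1 to 4 and 29.8, 21.7, 17.04 and 21.4 CPM in mAb-DXd/IMQ tumors 1 to 4. Tumors 1, 2 and 4 of the mAb-DXd/IMQ group lay above all saline tumors and tumor 3 among them. Mrps22 had a log2 fold change of 0.47 (SE 0.17) and edgeR adjusted p = 0.164, with 0.30 in place of that log2 fold change when mAb-DXd/IMQ tumor 1 was left out. Mrps25 had 18.2, 20.3, 20.3 and 21.6 CPM in saline tumors 1 to 4 and 32.7, 26.1, 22.8 and 26.9 CPM in mAb-DXd/IMQ tumors 1 to 4. The groups did not overlap. Mrps25 had a log2 fold change of 0.43 (SE 0.13) and edgeR adjusted p = 0.116, but 69.8% of its exon bases are shared with other rows, and Nr2c2 on the other strand had 163% of its counts and a log2 fold change of −0.65. Mrps34, mutated in a human form of Leigh syndrome, had 15.1, 13.6, 15.3 and 15.7 CPM in saline tumors 1 to 4 and 23.4, 16.2, 13.3 and 18.3 CPM in mAb-DXd/IMQ tumors 1 to 4. The mAb-DXd/IMQ tumor 3 was lowest of all 8 and the other 3 lay above every saline tumor. Mrps34 had a log2 fold change of 0.25 (SE 0.17) and edgeR adjusted p = 0.468, and 0.088 was its log2 fold change without mAb-DXd/IMQ tumor 1. It shares 77.8% of its exon bases with other rows, among them Mapk8ip3 with 1040% of its counts. Mrps31 had 23.1, 25.9, 23.3 and 25.7 CPM in saline tumors 1 to 4 and 26.9, 22.2, 17.4 and 18.5 CPM in mAb-DXd/IMQ tumors 1 to 4. The mAb-DXd/IMQ tumor 1 was highest of all 8, and the other 3 lay below every saline tumor. Mrps33 had 25.1, 31.6, 31.5 and 32.2 CPM in saline tumors 1 to 4 and 33.3, 24.6, 24.6 and 26.6 CPM in mAb-DXd/IMQ tumors 1 to 4. Its mAb-DXd/IMQ tumors 2 and 3 lay below every saline tumor and tumor 1 above. Mrps31 had the lowest log2 fold change of all members, −0.21 (SE 0.15, edgeR adjusted p = 0.492), followed by Mrps33 at −0.14 (SE 0.14). With mAb-DXd/IMQ tumor 1 left out they had −0.34 and −0.26, and Mrps31 had −0.12 without mAb-DXd/IMQ tumor 3 and Mrps33 −0.22 without saline tumor 1.

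Names do not always give the subunit, and the 3 Mrps18 genes are paralogs whose proteins sit at different places. The protein of Mrps18c takes the position of bacterial S18, that of Mrps18b sits elsewhere in the small subunit, and those of Mrps18a and Mrps30 are found in the large subunit. Mrps18a had 29.4, 34.2, 37.1 and 34.3 CPM in saline tumors 1 to 4 and 42.6, 35.9, 35.2 and 32.8 CPM in mAb-DXd/IMQ tumors 1 to 4. Mrps18b had 10.1, 14.04, 12.9 and 13.3 CPM in saline tumors 1 to 4 and 10.7, 13.1, 14.6 and 12.3 CPM in mAb-DXd/IMQ tumors 1 to 4. Mrps18c had 9.73, 12.6, 13.3 and 12.01 CPM in saline tumors 1 to 4 and 12.1, 11.5, 9.24 and 13.1 CPM in mAb-DXd/IMQ tumors 1 to 4. In all 3 genes the groups overlapped, and the highest tumor was mAb-DXd/IMQ tumor 1 for Mrps18a, mAb-DXd/IMQ tumor 3 for Mrps18b and saline tumor 3 for Mrps18c. The log2 fold changes of Mrps18a, Mrps18b and Mrps18c were 0.12 (SE 0.12), 0.012 (SE 0.16) and −0.055 (SE 0.17). For Mrps18a it was 0.055 without saline tumor 1 and 0.034 without mAb-DXd/IMQ tumor 1. Mrps30 had 23.2, 23.97, 23.3 and 24.1 CPM in saline tumors 1 to 4 and 25.8, 26.5, 22.5 and 26.4 CPM in mAb-DXd/IMQ tumors 1 to 4. The mAb-DXd/IMQ tumor 3 was lowest of all 8 and the other 3 lay above the saline tumors. Mrps36, whose protein is a component of the oxoglutarate dehydrogenase complex, had 13.5, 18.98, 16.6 and 18.6 CPM in saline tumors 1 to 4 and 23.02, 17.7, 16.3 and 19.4 CPM in mAb-DXd/IMQ tumors 1 to 4. The mAb-DXd/IMQ tumors 1 and 4 lay above all saline tumors, and tumors 2 and 3 among them. Mrps30 and Mrps36 had log2 fold changes of 0.10 (SE 0.11) and 0.18 (SE 0.16). The value of Mrps30 was 0.15 without mAb-DXd/IMQ tumor 3, and that of Mrps36 was 0.079 without saline tumor 1 and 0.070 without mAb-DXd/IMQ tumor 1.

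For 12 of the 29 members named by rule, with log2 fold changes between −0.055 and 0.18, the sign differed under at least 1 alternative: Mrpl3, Mrpl14, Mrpl41, Mrpl44, Mrpl48, Mrps2, Mrps5, Mrps12, Mrps18b, Mrps18c, Mrps21 and Mrps36. With single tumors left out in turn, the log2 fold change of Mrpl3 lay between −0.11 and 0.075, that of Mrpl14 between −0.13 and 0.060, that of Mrpl41 between −0.13 and 0.047 and that of Mrpl44 between −0.065 and 0.13. In the same way Mrpl48 lay between −0.10 and 0.076, Mrps5 between −0.10 and 0.006, Mrps12 between −0.056 and 0.22 and Mrps21 between −0.042 and 0.13. Mrps18b lay between −0.084 and 0.084 and Mrps18c between −0.14 and 0.034, and Mrps2 between 0.075 and 0.23 and Mrps36 between 0.070 and 0.24, both of 1 sign with TMM scaling whichever tumor was left out. No direction is therefore given for these 12 genes.

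Log2 fold changes differed by gene length across the whole table. Members are short genes, with a median length of 2213.5 bases beside 3516 over all tested genes, from 607 bases for Mrpl34 to 8631 for Mrps35. The median log2 fold change over all tested genes was 0.15 in the shortest length decile, 0.048 in the fifth and −0.13 in the longest. The 4 shortest deciles held 4, 20, 14 and 6 of the 77 tested members, and the longest held 0. Against the median of their own decile, 59 of the 77 members lay above it, with a median difference of 0.13. In each tumor, the slope of a gene's log2 deviation from the mean of the 8 tumors on its log2 length, over 14523 genes, was 0.030, 0.040, 0.017 and 0.025 in saline tumors 1 to 4 and −0.076, −0.019, 0.035 and −0.052 in mAb-DXd/IMQ tumors 1 to 4. Negative slopes were found in mAb-DXd/IMQ tumors 1, 4 and 2, in which shorter genes were higher, while mAb-DXd/IMQ tumor 3 had a positive slope like the saline tumors. These tumors stood in the same order in the members' median deviation, from 0.45 in tumor 1 through 0.19 in tumor 4 and 0.15 in tumor 2 to 0.023 in tumor 3.

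With each tumor's counts corrected for gene length by a spline, the members' median log2 fold change was 0.15 with 64 of 77 positive, beside 0.006 over all tested genes. No member passed the thresholds after this correction in edgeR, against 0.438% of all tested genes called higher and 0.384% called lower, and 16 members were higher and 0 lower at an unadjusted p under 0.05, against 8.5% and 9.29%. Without the correction the counts were 1 in edgeR, 2 in DESeq2 and 0 in limma voom, where DESeq2 called 2.37% and limma voom 0.465% of all tested genes higher, and the correction was fitted in edgeR alone. The groups did not overlap, with mAb-DXd/IMQ higher, in 11 members, against 5.61% of all tested genes, and with mAb-DXd/IMQ lower in 0, against 6.54%. The corrected median deviations of the members were −0.081, 0.040, 0.037 and 0.021 in saline tumors 1 to 4 and 0.38, 0.063, 0.016 and 0.11 in mAb-DXd/IMQ tumors 1 to 4. Tumor 1 was still the highest of the mAb-DXd/IMQ group, and tumors 2 and 3 lay near the saline tumors. Without mAb-DXd/IMQ tumor 1 the corrected median log2 fold change was 0.063, and without mAb-DXd/IMQ tumor 3 it was 0.20. Large-subunit genes had a corrected median of 0.18 and small-subunit genes one of 0.091. With mAb-DXd/IMQ tumor 1 left out these 2 medians were 0.077 and 0.016, and the small-subunit one was 0.055 without saline tumor 1 and 0.14 without saline tumor 2.

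Among the members named, the correction raised the log2 fold changes of the longest genes and lowered those of the others. Mrps22, at 3991 bases, went from 0.47 to 0.45, and Mrps18a, at 3690 bases, from 0.12 to 0.083. Both were lowered, though they are longer than the median of 3516 bases over all tested genes. Mrpl13, at 7936 bases in the deposited length, went from 0.59 to 0.68, and Mrps25, at 6576 bases, from 0.43 to 0.50. Mrpl27, at 985 bases, went from 0.52 to 0.40, Mrpl28, at 1274 bases, from 0.54 to 0.42, and Mrpl14, at 949 bases, from −0.050 to −0.17. Mrps7 went from 0.56 to 0.46 and Mrpl43 from −0.12 to −0.24. The principal transcripts of the members had a median of 1302 bases beside 2557 over all tested genes, and Mrpl13 corrected by its principal transcript of 1223 bases had 0.48. With the principal transcript in place of the deposited length the members' median was 0.13 and 0 members passed the thresholds in edgeR, against 0.465% of all tested genes called higher and 0.384% called lower, with 15 higher and 1 lower at an unadjusted p under 0.05, against 8.45% and 9.31%.

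**Figure D5:**
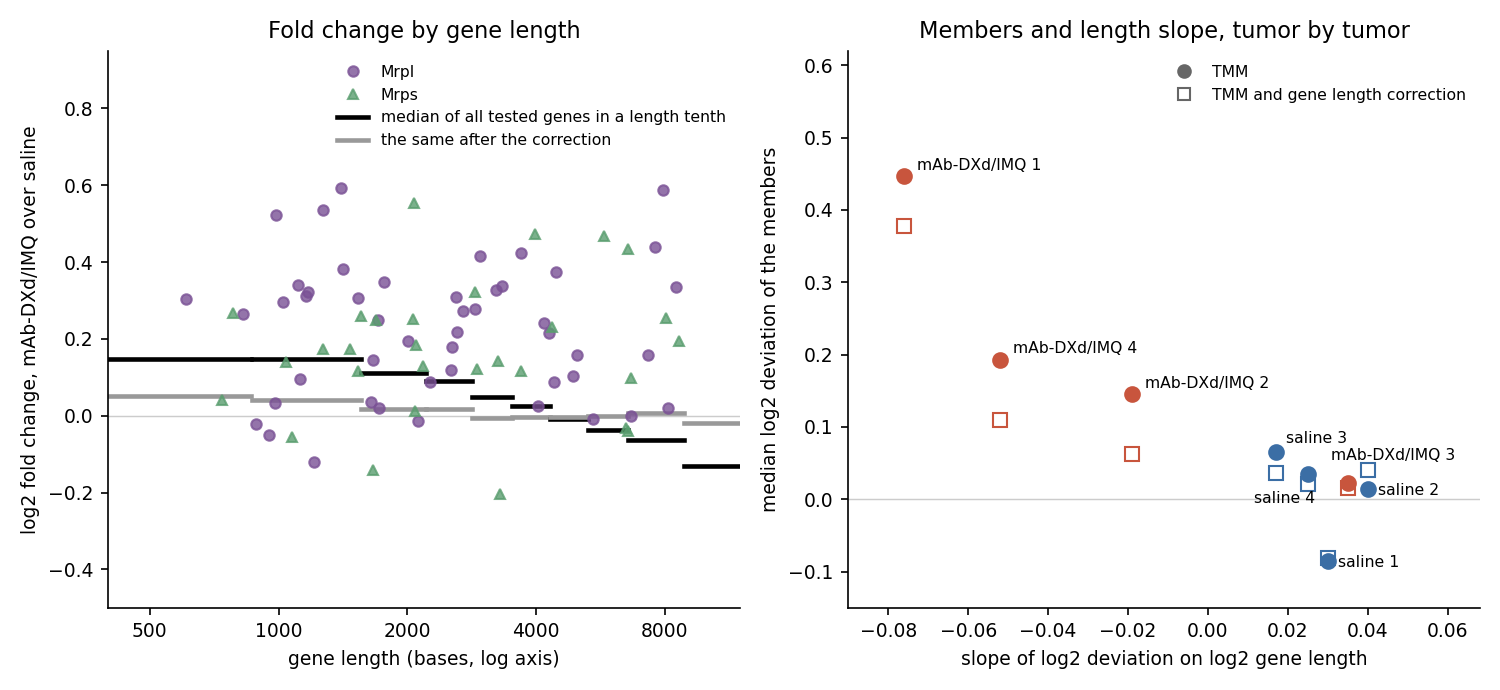
Left, log2 fold change of the tested members against gene length in bases on a log axis, with the median of all tested genes in each length decile before and after correction for length. Right, each tumor's median log2 deviation in the members against its slope on log2 length, where mAb-DXd/IMQ tumor 1 has the steepest negative slope (−0.076) and the highest deviation (0.45).

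Many of these genes lie close to another gene. The 78 members lie on 17 chromosomes, 11 of them on chromosome 11. Of the 78, 33 (42.3%) have the start of a protein-coding gene on the other strand within 1000 bases of their own, against 2383 of 22046 protein-coding genes (10.8%). The 30 tested partners had a median log2 fold change of 0.12 with 21 positive. Mrpl46 and Mrps11 are partners of each other, with starts 412 bases apart, and had log2 fold changes of 0.38 and 0.13. Twnk, the gene of the mitochondrial DNA helicase, begins 116 bases from Mrpl43 and had 0.18 beside −0.12 for Mrpl43, and Sars2, a mitochondrial seryl-tRNA synthetase gene, begins 172 bases from Mrps12 and had 0.40 beside 0.14. These partners were chosen after their values were seen. The spans of 41 members (52.6%) overlap another row, against 10054 of 22046 protein-coding genes (45.6%), and for 13 members the overlapping row holds more counts than the member. Since use of strand in the counting is not stated, reads of overlapping rows cannot be told apart, and these members are reported as uncertain. The 46 tested members that share no exon base with another row had a median log2 fold change of 0.23 with 39 positive, and the 56 whose overlapping rows hold under 10% of their counts, or that overlap none, had 0.22 with 47 positive.

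Cytosolic ribosomal protein genes and genes of respiratory complex I were set beside the members as the most similar groups of short, abundant genes. The 86 tested of 89 cytosolic ribosomal protein genes had a median log2 fold change of 0.19 with 63 positive, and the 37 complex I genes one of 0.17 with 32 positive, beside 0.19 for the members. By edgeR 0 cytosolic genes were past the thresholds, with 10 of 86 higher and 4 lower at an unadjusted p under 0.05, against 9.13% and 9.79% of all tested genes, and DESeq2 and limma voom gave 0. For complex I edgeR gave 0, with 8 of 37 higher and 1 lower at an unadjusted p under 0.05, DESeq2 gave 2 higher and limma voom 0, against 2.37% and 0.465% of all tested genes, and without mAb-DXd/IMQ tumor 3 edgeR gave 1 higher, against 0.276% of all genes tested in that fit. At an unadjusted p under 0.05, 24 cytosolic and 14 complex I genes were higher without mAb-DXd/IMQ tumor 3, against 8.67% of all genes tested in that fit, and 6 cytosolic genes without saline tumor 1, saline tumor 3 or mAb-DXd/IMQ tumor 4, against 8.89, 7.43 and 8.03%. Relative to the saline mean, the median log2 deviation of the cytosolic genes was −0.15, 0.049, 0.050 and 0.049 in saline tumors 1 to 4 and 0.37, 0.014, −0.12 and 0.27 in mAb-DXd/IMQ tumors 1 to 4. For complex I it was −0.11, −0.003, 0.076 and 0.016 in saline tumors 1 to 4 and 0.41, 0.15, −0.18 and 0.22 in mAb-DXd/IMQ tumors 1 to 4. In both groups, as in the members, mAb-DXd/IMQ tumor 1 was highest and tumor 3 lowest of the mAb-DXd/IMQ tumors, and in both tumor 3 lay under the saline mean. Corrected for gene length, the medians were 0.090 for cytosolic and 0.064 for complex I genes, beside 0.15 for the members. Without mAb-DXd/IMQ tumor 1 the uncorrected medians were 0.078 and 0.061, beside 0.11, and without mAb-DXd/IMQ tumor 4 that of the cytosolic genes was 0.12. Differences among the 3 groups were not tested.

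Of the other genes of mitochondrial translation and its supply, 1 of 89 tested passed the thresholds. The 91 genes of 7 lists had a median log2 fold change of 0.13 over the 89 tested, with 70 positive, 1 called higher and 0 lower in edgeR, against 0.546% and 0.519% of all tested genes, and 15 higher and 2 lower at an unadjusted p under 0.05, against 9.13% and 9.79%, or 4 lower without mAb-DXd/IMQ tumor 1, where 11.5% of all tested genes were. DESeq2 called 1 of the 89 higher and 0 lower, and limma voom called 0, where they called 2.37% and 0.465% of all tested genes higher. The called gene was Yars2 (ENSMUSG00000022792), the mitochondrial tyrosyl-tRNA synthetase, with 14.7, 16.1, 14.9 and 16.03 CPM in saline tumors 1 to 4 and 24.7, 20.04, 28.02 and 23.4 CPM in mAb-DXd/IMQ tumors 1 to 4. All 4 mAb-DXd/IMQ tumors lay above all 4 saline tumors, and here tumor 3 was highest. Yars2 rose with a log2 fold change of 0.64 (SE 0.13, n = 4 per group) and edgeR adjusted p = 0.0450. Leaving out any of the 8 tumors ended this call, with edgeR adjusted p of 0.0715, 0.0832, 0.123 and 0.143 without saline tumors 1 to 4 and 0.0608, 0.0562, 0.0747 and 0.106 without mAb-DXd/IMQ tumors 1 to 4. With correction for gene length the log2 fold change was 0.59 (edgeR adjusted p = 0.0648), and over the 28 alternatives the adjusted p lay between 0.000760 and 0.177. The list of Yars2 holds 20 genes that serve the charging of mitochondrial tRNAs, among them Gatb, Gatc and Qrsl1, which are not synthetases. These 20 genes had a median of 0.22 with 17 positive and 7 higher at an unadjusted p under 0.05, against 9.13% of all tested genes. Without saline tumor 3 or 4 the number higher was 4, where 7.43% and 6.79% of all tested genes were. Without mAb-DXd/IMQ tumor 1 the gene past the thresholds was Cars2, chosen after its value was seen, in place of Yars2.

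The 5 mitoribosome proteins with names outside the naming rule had a median log2 fold change of 0.16, all 5 positive, from 0.019 (SE 0.12) for Dap3, a GTP-binding protein of the small subunit, to 0.25 (SE 0.16) for Gadd45gip1, a protein of the large subunit. These 2 genes had −0.063 and 0.16 without mAb-DXd/IMQ tumor 1, and Dap3 lay between −0.063 and 0.091 with single tumors left out. None of the 5 was past the thresholds in edgeR, DESeq2 or limma voom, and 0 were past an unadjusted p of 0.05 in edgeR, or 1 higher without mAb-DXd/IMQ tumor 3, where 8.67% of all tested genes were. Dap3 was at 84.3, 80.2, 79.7 and 76.4 CPM in saline tumors 1 to 4 and 94.1, 86.8, 68.6 and 75.2 CPM in mAb-DXd/IMQ tumors 1 to 4. The mAb-DXd/IMQ tumors lay on both sides of the saline tumors, tumors 1 and 2 above and tumors 3 and 4 below. The 11 translation factors had a median of 0.12 with 10 positive, 0 called by the 3 tools and 1 higher at an unadjusted p under 0.05 in edgeR, against 9.13% of all tested genes, from −0.074 (SE 0.26) for the release factor Mtrf1 to 0.46 (SE 0.14) for Tsfm, elongation factor Ts. The log2 fold change of Mtrf1 lay between −0.25 without saline tumor 1 and 0.046 without mAb-DXd/IMQ tumor 3. Tsfm was at 14.4, 13.04, 14.4 and 13.8 CPM in saline tumors 1 to 4 and 23.5, 18.2, 16.5 and 18.2 CPM in mAb-DXd/IMQ tumors 1 to 4. Every mAb-DXd/IMQ tumor was higher than every saline tumor. Tsfm had edgeR adjusted p = 0.122. The medians of the translation factors were 0.18 without saline tumor 4 and 0.19 without mAb-DXd/IMQ tumor 2.

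The 24 assembly factors had a median log2 fold change of 0.083 with 16 positive, 0 called by the 3 tools, and 3 higher and 1 lower at an unadjusted p under 0.05 in edgeR, against 9.13% and 9.79% of all tested genes, and the median was 0.051 without mAb-DXd/IMQ tumor 3. They ran from −0.55 (SE 0.24) for the ribosomal RNA methyltransferase Mettl15 to 0.48 (SE 0.16) for the ribosomal RNA methyltransferase Mrm3. Mettl15 was at 4.22, 4.33, 4.14 and 5.49 CPM in saline tumors 1 to 4 and 4.33, 3.15, 2.51 and 2.42 CPM in mAb-DXd/IMQ tumors 1 to 4. The mAb-DXd/IMQ tumors 2, 3 and 4 lay below every saline tumor and tumor 1 among them, while for Mrm3 every mAb-DXd/IMQ tumor lay above every saline tumor. Mettl15 and Mrm3 had edgeR adjusted p = 0.255 and 0.145. Of 12 genes of transcription and RNA handling, 11 were tested, Slirp being too low, with a median of 0.15, 9 positive, 0 called by the 3 tools and 2 higher at an unadjusted p under 0.05 in edgeR, against 9.13% of all tested genes. Pnpt1, polynucleotide phosphorylase, was at 44.3, 39.3, 50.6 and 47.8 CPM in saline tumors 1 to 4 and 65.2, 57.4, 67.9 and 64.2 CPM in mAb-DXd/IMQ tumors 1 to 4. Its groups did not overlap, and it had a log2 fold change of 0.49 (SE 0.11) and edgeR adjusted p = 0.0550. Mtpap, the mitochondrial poly(A) polymerase, was lowest of that list at −0.22 (SE 0.14), with mAb-DXd/IMQ tumor 1 above and tumors 2, 3 and 4 below every saline tumor, and had −0.34 without mAb-DXd/IMQ tumor 1 and −0.13 without mAb-DXd/IMQ tumor 3.

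The 10 genes of protein insertion, chaperones and proteases had a median log2 fold change of 0.16 with 9 positive, 0 called by the 3 tools and 2 higher at an unadjusted p under 0.05 in edgeR, against 9.13% of all tested genes. Hspd1, the chaperonin HSP60, was at 279.5, 299, 269 and 283 CPM in saline tumors 1 to 4 and 471, 370.3, 346 and 309 CPM in mAb-DXd/IMQ tumors 1 to 4. Every mAb-DXd/IMQ tumor lay above every saline tumor. Hspd1 had a log2 fold change of 0.41 (SE 0.14) and edgeR adjusted p = 0.146, and Clpx, the unfoldase of the ClpXP protease, was lowest of its list at −0.001 (SE 0.14), between −0.13 without mAb-DXd/IMQ tumor 1 and 0.061 without mAb-DXd/IMQ tumor 3 or 4. Of 9 regulators of mitochondrial biogenesis 8 were tested, Ppargc1a being too low, with a median of 0.010, 4 positive and 4 negative, 0 called by the 3 tools and 1 lower at an unadjusted p under 0.05 in edgeR, against 9.79% of all tested genes. That median was between −0.11 and 0.049 with single tumors left out, and negative without saline tumors 1, 2 or 4 or mAb-DXd/IMQ tumors 1 or 3. Gabpb1, a subunit of the ETS factor GABP, was at 52.2, 43.6, 46.1 and 46.02 CPM in saline tumors 1 to 4 and 43.8, 39.1, 35.5 and 35.95 CPM in mAb-DXd/IMQ tumors 1 to 4. The mAb-DXd/IMQ tumors 2, 3 and 4 lay below every saline tumor and tumor 1 among them. Gabpb1 had a log2 fold change of −0.28 (SE 0.11) and edgeR adjusted p = 0.193, and Myc, a transcription factor that acts on genes of growth, was highest of the list at 0.25 (SE 0.15) with mAb-DXd/IMQ tumor 3 above all other tumors, and had 0.092 without that tumor.

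Markers of cell types and of cell division were summed per tumor beside these results. The 5 carcinoma epithelium markers, all tested and all positive in log2 fold change, summed to 2336, 1682, 2260 and 2045 CPM in saline tumors 1 to 4 and 3062, 2410, 1883 and 1906 CPM in mAb-DXd/IMQ tumors 1 to 4, with Krt18 the most abundant. Tumor 1 was the highest of the mAb-DXd/IMQ group, as in the members, and the groups overlapped. The 10 proliferation markers, all tested and 9 positive, summed to 1375, 1083, 1539 and 1201 CPM in saline tumors 1 to 4 and 1676, 1423, 1582 and 1383 CPM in mAb-DXd/IMQ tumors 1 to 4, with Top2a the most abundant. Again mAb-DXd/IMQ tumor 1 was highest, and the groups overlapped. The 9 leukocyte markers, all tested and 0 positive, summed to 494, 943, 605 and 715 CPM in saline tumors 1 to 4 and 447, 387, 536 and 362 CPM in mAb-DXd/IMQ tumors 1 to 4, with Csf1r the most abundant, and the groups overlapped. Of the 9 leukocyte markers 2 were called lower in edgeR, against 0.519% of all tested genes, Cd4 at −1.91 and Cd8a at −1.22 (edgeR adjusted p = 0.0201 for each). Leaving out saline tumor 3, saline tumor 4 or mAb-DXd/IMQ tumor 4 ended both calls, and with single tumors left out the edgeR adjusted p lay between 0.00417 and 0.0846 for Cd4 and between 0.0133 and 0.0846 for Cd8a. All 5 epithelial markers were counted in every tumor. None of these 3 lists had a marker at 0, and their part in the members' result was not tested.

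The 5 endothelium markers, all tested and positive, summed to 77.5, 191, 134 and 144 CPM in saline tumors 1 to 4 and 188, 166, 190.1 and 155 CPM in mAb-DXd/IMQ tumors 1 to 4, with Pecam1 the most abundant. The 6 fibroblast markers, all tested and 2 positive, summed to 2795, 3786, 6610 and 7061 CPM in saline tumors 1 to 4 and 5484, 4219, 7501 and 2818 CPM in mAb-DXd/IMQ tumors 1 to 4, with Col1a1 the most abundant. Saline tumor 1 was lowest of all 8 in both sums, and neither sum separated the groups. Of 8 skeletal muscle markers 7 were tested, 1 positive, and Tnnc2 was at 0 in every tumor, and the list summed to 424, 39.8, 332 and 189.8 CPM in saline tumors 1 to 4 and 319.6, 74.1, 162 and 237 CPM in mAb-DXd/IMQ tumors 1 to 4, with Acta1 the most abundant. Of 6 epidermis markers 4 were tested, all 4 positive, and the list summed to 200.1, 32.4, 146 and 98.5 CPM in saline tumors 1 to 4 and 215, 493, 223 and 100.3 CPM in mAb-DXd/IMQ tumors 1 to 4, with Krt14 the most abundant. Muscle sums ranged widely in both groups, and mAb-DXd/IMQ tumor 2 had the highest epidermis sum. Of 6 adipocyte markers 3 were tested, 0 positive, and the list, with Adipoq the most abundant, summed to at most 3.12 CPM in any tumor. The part of these lists in the members' result was not tested.

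The 13 protein genes of mitochondrial DNA, whose messenger RNAs the mitoribosome translates, held 2.42, 2.42, 2.4 and 2.34% of counts in saline tumors 1 to 4 and 1.74, 3.09, 2.99 and 3.55% in mAb-DXd/IMQ tumors 1 to 4. The mAb-DXd/IMQ tumors 2, 3 and 4 lay above all saline tumors and tumor 1, the highest in the nuclear mitoribosome genes, lay below all of them. Their median log2 fold change was 0.21 with 12 of 13 positive, 0 called in edgeR, DESeq2 or limma voom and 0 past an unadjusted p of 0.05 in edgeR, against 9.13% higher and 9.79% lower of all tested genes. Without mAb-DXd/IMQ tumor 1 the median was 0.40 and 8 were higher at an unadjusted p under 0.05, against 10.3% of all genes tested in that fit, while without mAb-DXd/IMQ tumor 2 it was 0.14 and without tumor 4 0.12. The tumor with the largest share of counts on mitoribosomal protein genes held the smallest share on the genes that mitoribosomes translate.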

How the data were processed

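For each tumor the authors deposited 1 column of unscaled read counts from a poly-A selected library, beside a length for each gene. The submitters' processing notes name HISAT2, HISAT and TopHat2 and the build mm39, but 53585 of 54495 matched genes have the start and end of GRCm38 (GENCODE M21), and the deposited length equals the union of exons for 53411 genes. The counting program and its use of strand are not given in the sources used here.

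Genes were kept by edgeR's filterByExpr (minimum count 10, minimum total 15), scaled by TMM and compared by the quasi-likelihood F-test without covariates, with Benjamini-Hochberg adjustment over all 18511 genes tested. Calls needed an FDR under 0.05 and a log2 fold change over 0.58 in size. SEs were derived from the test statistic. Length was corrected in each tumor by a natural spline with 5 degrees of freedom on log2 length, fitted on genes with a mean log2 CPM over 0 and used as an offset. The tools were DESeq2 1.42.0, edgeR 4.0.16 and limma 3.58.1 in R 4.3.3, and pandas 2.3.3 and matplotlib 3.10.9 in Python 3.11.15.

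Named members were those past the thresholds, the 5 highest and 5 lowest log2 fold changes with a mean of at least 8 CPM, a set chosen by role, and the 3 highest and 3 lowest per kb, and each pathway list gave its called genes or else its highest and lowest. Members and lists were chosen with earlier results of these data known. Cytosolic ribosomal protein genes were protein-coding genes named Rpl or Rps followed by a digit, without the Rps6k kinases and Rps19bp1. Alternatives were other scalings, filters and tests, a replicate block, length and GC corrections, and each tumor left out. Steps were run on simulated counts with less spread between tumors than these data. That run therefore does not show how the steps perform at the spread found here. No duplicated library was found.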

Additional observations from a re-analysis of the deposited data

Results flagged for a closer look

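The check covered 112 groups of 4 tumors, over the named members and pathway genes, the marker sums and some of the values per tumor. In 4 of them the gap between 1 tumor and the other 3 was more of the group's range than Dixon's limit for 4 samples. Chance gives about 1 in 20 groups, or 5.6 of 112. All 4 were saline groups. For Mrpl27 tumor 2 stood above at 27.1 CPM, with a gap of 0.92 of the range. For Mrpl3 tumor 1 stood below at 46.5 CPM, with a gap of 0.871 of the range. For Mrps33 tumor 1 stood below at 25.1 CPM, with a gap of 0.894 of the range. For Mettl15 tumor 4 stood above at 5.49 CPM, with a gap of 0.855 of the range. Median deviations of the cytosolic genes, with saline tumor 1 at −0.15 and the other 3 between 0.049 and 0.050, were not among the 112 groups checked. Nor were the members' length-corrected ones, with saline tumor 1 at −0.081 and the other 3 between 0.021 and 0.040. Dixon's limit was therefore not applied to either, though saline tumor 1 stood apart in both.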

How the results depend on the processing

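Over the 28 alternatives, of which 9 (the principal transcript length, and leaving out each tumor with the length correction) were chosen after seeing the data, the members' median log2 fold change was positive throughout. It lay between 0.13 and 0.24 with all tumors in the fit, between 0.11 and 0.25 with 1 tumor left out, and between 0.063 and 0.20 with 1 tumor left out and the length correction, beside an SD of 0.13 between tumors. The calls were less steady, and the cause was not tested. Genes past the thresholds, 197 in the comparison reported, numbered 358 with no filter on low counts, 787 with DESeq2 and 10 to 203 with 1 tumor left out. Members past the thresholds numbered 2 with upper-quartile factors and with DESeq2, 0 with limma voom (18 higher at an unadjusted p under 0.05) and with each length correction, and 0 to 2 with 1 tumor left out. Members with an FDR under 0.05 at any fold numbered 3 with upper-quartile factors and with library size alone, 2 with the filter of CPM over 1 in 4 tumors, 9 with DESeq2, 0 with limma voom and with each length correction, and 0 to 2 with 1 tumor left out. All of these were higher, and at the same limit 177, 142, 152 and 618 of all tested genes (14656 with the CPM filter, 18511 in the other 3) were higher in the first 4 of these fits. At these depths every tested member had a mean of at least 11.7 CPM, over every floor, and what part depth or overlap with other rows had in the 0 of Mrpl53 was not tested.

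The labels do not say whether same-numbered tumors share anything but a number. Correlations of their deviations from the group means were −0.17, −0.0546, 0.0794 and −0.0672 for numbers 1 to 4. Not every tumor correlated best with its own number, but with 4 tumors per group these values cannot tell whether tumors were paired. With the sample number as a replicate block, 14 genes and 0 members were past the thresholds and 0 members had an FDR under 0.05, and with the replicate block and the length correction these were 17, 0 and 0. In each of these 2 fits 15 of 77 members were higher at an unadjusted p under 0.05, beside 1359 and 1317 of the 18511 genes tested. The block left the members' median at 0.18 with 66 positive.

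Signs differed for 12 of 29 named members in 90 of 812 fits, and for 3 of 13 named pathway genes. With the corrections for gene length, for length and GC, for length with the replicate block and for the principal transcript, log2 fold changes were 0.063, 0.072, 0.051 and 0.050 for Mrpl3, 0.020, 0.025, 0.015 and 0.030 for Mrps5, −0.068, −0.073, −0.079 and −0.068 for Mrpl44, −0.070, −0.076, −0.073 and −0.083 for Mrps18b and −0.080, −0.087, −0.086 and −0.072 for Mrps21. Upper-quartile factors gave 0.043 for Mrpl3, 0.025 for Mrpl41, 0.007 for Mrps5 and 0.042 for Clpx. Library size alone gave 0.025 for Mrpl3, 0.005 for Mrpl41 and 0.021 for Clpx, and the filter of CPM over 1 gave 0.004 for Mrpl3 and 0.002 for Clpx. With 1 tumor left out, with or without the length correction, values ran from −0.11 to 0.13 for Mrpl3, −0.23 to 0.060 for Mrpl14, −0.24 to 0.047 for Mrpl41, −0.14 to 0.13 for Mrpl44, −0.10 to 0.20 for Mrpl48, −0.001 to 0.23 for Mrps2, −0.10 to 0.082 for Mrps5, −0.14 to 0.22 for Mrps12, −0.17 to 0.084 for Mrps18b, −0.26 to 0.034 for Mrps18c, −0.14 to 0.13 for Mrps21, −0.033 to 0.24 for Mrps36, −0.063 to 0.17 for Dap3, −0.33 to 0.046 for Mtrf1 and −0.17 to 0.061 for Clpx. The cause was not tested.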
